A study of Homo sapiens with 12 samples.

Results

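The genes described here encode 8 receptors through which cells hold or sense collagen: the integrin subunits ITGA1, ITGA2, ITGA10, ITGA11 and ITGB1, the discoidin domain receptors DDR1 and DDR2, and CD44. They were taken by name, and each accessible site whose summit lay inside one of these genes or within 10 kb of it, in RefSeq coordinates on GRCh38, was assigned to that gene. This gave 84 summits of the 188019 in the deposited peak list, at 8 of 20037 protein-coding genes. The assay was ATAC-seq, which cuts and tags open chromatin, in HT1080, an established human fibrosarcoma line. The cells migrated for 48 h as single cells in matrices of rat tail type-I collagen, with 4 libraries each at 0.3 (low), 1.0 (medium) and 1.7 (high) mg/mL. All 12 libraries came from cells treated with 20 µM of GM6001, which blocks matrix metalloproteinases broadly, then released from the gel with collagenase and frozen before the assay. Cells without the inhibitor or outside collagen were not analysed here. The peak list carries 1 value per summit for the libraries together, so the collagen concentrations were not compared, there are no replicates, and the depth per library is unknown.

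As background, collagen-binding integrins are pairs of an alpha chain and the beta 1 chain. The alpha 1, alpha 2, alpha 10 and alpha 11 chains each carry an inserted domain that contacts the triple helix of collagen, and all of them pair with the product of ITGB1, which also serves fibronectin and laminin receptors. DDR1 and DDR2 are receptor tyrosine kinases that are switched on by collagen itself, DDR1 chiefly in epithelial cells and DDR2 chiefly in mesenchymal cells. CD44 is best known as the receptor for hyaluronan and can also bind collagen.

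Every value below describes a summit, a local maximum of coverage within an interval that the authors called as a peak, and 1 interval can hold several. Enrichment is the authors' fold value at the summit over the local background. Pileup is the coverage at the summit, recovered here from the authors' enrichment and p-value. Its units are called fragments here, although the sources used do not say whether fragments or read ends were counted. The local background, recovered in the same way, is the number of fragments expected there, and its lowest value anywhere in the list, 20.3 fragments, is called the genome-wide background. Intervals given with a pileup or an enrichment are 95% Poisson limits of the pileup with the background held fixed. They cover counting error only, not variation between cultures.

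To set the summits at the start sites beside the DNA there, the 250 bases before the outermost start are shown for 6 genes that span the range from the strongest to the weakest start summit (RefSeq, GRCh38.p14, 5′ to 3′ on the strand of the gene). Capitals mark the letters of motifs, searched on both strands. SP and KLF factors were represented by GGGCGG. The core sequence of the large family of ETS factors was searched as CCGGAA. For the CCAAT box, bound by the trimeric factor NF-Y, the name gives the letters. TEAD factors, which act with YAP and TAZ, were represented by GGAATG. AP-1, the dimer of FOS and JUN proteins, was represented by TGANTCA. The box bound by TBP at some start sites was searched as TATAAA, and the E-box of MYC and related factors as CACGTG. In the bases shown no match overlapped another.
ITGB1, chr10:32958231-32958480, minus strand, start enrichment 12.3: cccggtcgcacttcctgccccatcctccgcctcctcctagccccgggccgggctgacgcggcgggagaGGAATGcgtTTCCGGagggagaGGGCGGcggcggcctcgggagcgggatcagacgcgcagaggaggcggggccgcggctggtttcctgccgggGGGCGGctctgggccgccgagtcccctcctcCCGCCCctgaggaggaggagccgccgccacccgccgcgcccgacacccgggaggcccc
ITGA2, chr5:52989102-52989351, plus strand, start enrichment 10.75: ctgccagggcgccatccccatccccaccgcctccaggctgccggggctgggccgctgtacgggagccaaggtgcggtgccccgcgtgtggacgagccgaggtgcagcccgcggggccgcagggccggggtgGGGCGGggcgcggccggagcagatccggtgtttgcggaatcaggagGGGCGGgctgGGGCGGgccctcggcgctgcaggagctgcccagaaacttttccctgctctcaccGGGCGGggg
CD44, chr11:35138921-35139170, plus strand, start enrichment 9.96: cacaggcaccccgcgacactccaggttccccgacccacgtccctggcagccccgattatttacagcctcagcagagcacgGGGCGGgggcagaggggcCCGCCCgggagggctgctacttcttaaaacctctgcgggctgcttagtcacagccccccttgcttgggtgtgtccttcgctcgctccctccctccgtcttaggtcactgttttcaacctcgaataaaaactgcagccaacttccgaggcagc
ITGA1, chr5:52787666-52787915, plus strand, start enrichment 9.86: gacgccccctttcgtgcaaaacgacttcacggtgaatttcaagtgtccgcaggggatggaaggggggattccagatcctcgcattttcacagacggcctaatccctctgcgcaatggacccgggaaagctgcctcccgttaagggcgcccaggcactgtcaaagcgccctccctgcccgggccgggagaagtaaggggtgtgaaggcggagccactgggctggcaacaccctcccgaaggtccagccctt
ITGA10, chr1:145910051-145910300, minus strand, start enrichment 5.83: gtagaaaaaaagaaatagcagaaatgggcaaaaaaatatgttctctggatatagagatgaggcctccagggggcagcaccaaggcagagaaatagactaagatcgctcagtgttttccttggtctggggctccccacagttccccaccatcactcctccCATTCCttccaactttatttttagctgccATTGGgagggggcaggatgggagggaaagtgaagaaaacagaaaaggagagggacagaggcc
ITGA11, chr15:68432164-68432413, minus strand, start enrichment 2.33: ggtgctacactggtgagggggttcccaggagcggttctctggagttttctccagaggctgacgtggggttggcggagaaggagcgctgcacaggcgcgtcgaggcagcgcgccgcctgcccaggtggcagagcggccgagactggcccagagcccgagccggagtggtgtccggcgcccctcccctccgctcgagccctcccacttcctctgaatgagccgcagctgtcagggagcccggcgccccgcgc

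GGGCGG stood 4 times in the ITGA2 sequence, 3 times in that of ITGB1 and 2 times in that of CD44, and was in neither those of ITGA1 and ITGA11 nor that of ITGA10. The ITGB1 sequence also held the ETS and the TEAD letters once each, and that of ITGA10 held the CCAAT box and the TEAD letters once each. Among the same 250 bases at 22199 listed starts of protein-coding genes, the SP/KLF letters were present in 53.7%, the CCAAT box in 32.7%, the ETS letters in 17.95%, the TEAD letters in 10.5%, the TBP box in 9.005%, the E-box in 7.37% and the AP-1 letters in 5.36%. These are matches of letters and not sites of binding. CpG content, as the ratio of observed to expected CpG over the window of 300 bases from 250 before to 50 after the start, was 0.848 for ITGB1, 0.748 for ITGA11, 0.69 for ITGA2, 0.668 for ITGA1 and 0.626 for CD44, against 0.114 for ITGA10. At DDR2 the ratio was 0.0 at the outermost start and at most 0.359 at its other starts. A summit lay within 1000 bp of 83.3% of coding starts with a ratio of at least 0.6 and of 28.7% of those below it. ITGA10 and DDR2 thus had summits at CpG-poor starts, and ITGA11, with a CpG-rich start, had a start enrichment above that of only 5.99% of coding genes with a start summit.

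All 8 genes had at least 1 summit in the gene or within 10 kb, as did 89.8% of protein-coding genes. The 84 summits lay in 70 intervals of 261 to 1698 bp. Of these summits, 67 were inside a gene, 8 upstream and 9 downstream. CD44 had the most, with 25, followed by ITGA11 with 13, ITGA2 and DDR2 with 12 each, ITGA1 with 8, ITGA10 and ITGB1 with 6 each, and DDR1 with 2. Per 100 kb of gene and window, CD44 had 22.1 summits, a density above that of 96.6% of protein-coding genes. That lead rested on weak summits. At a −log10 q of at least 50 CD44 kept 3 of its 25 summits, and ITGA2 had the most, with 9. ITGA10 had 15.45, ITGA2 9.57, ITGA11 8.35, ITGB1 7.70, DDR2 6.80, DDR1 5.10 and ITGA1 4.18 summits per 100 kb, while the median over protein-coding genes was 5.89. Among genes of at least 50 kb the median was 3.78, and the 6 receptor genes of that length, ITGA1 included, lay above it. Most of the summits, 67 of 84, were more than 1000 bp from any listed start of any gene. The same share over the whole list was not computed, so these 67 are not set apart from other summits. Starts were not listed for every gene, and some of these summits lay within 1000 bp of another gene's end, the strongest of CD44 among them. The strongest summit was at the gene's own start only for ITGB1. For ITGA1, DDR1 and DDR2 it lay at the start of another gene, and for ITGA2, ITGA10, ITGA11 and CD44 it lay inside the gene, away from listed starts. How many of all protein-coding genes have their strongest summit at their own start was not computed. The places of the strongest summits thus describe the 8 genes only.

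**Figure D1:**
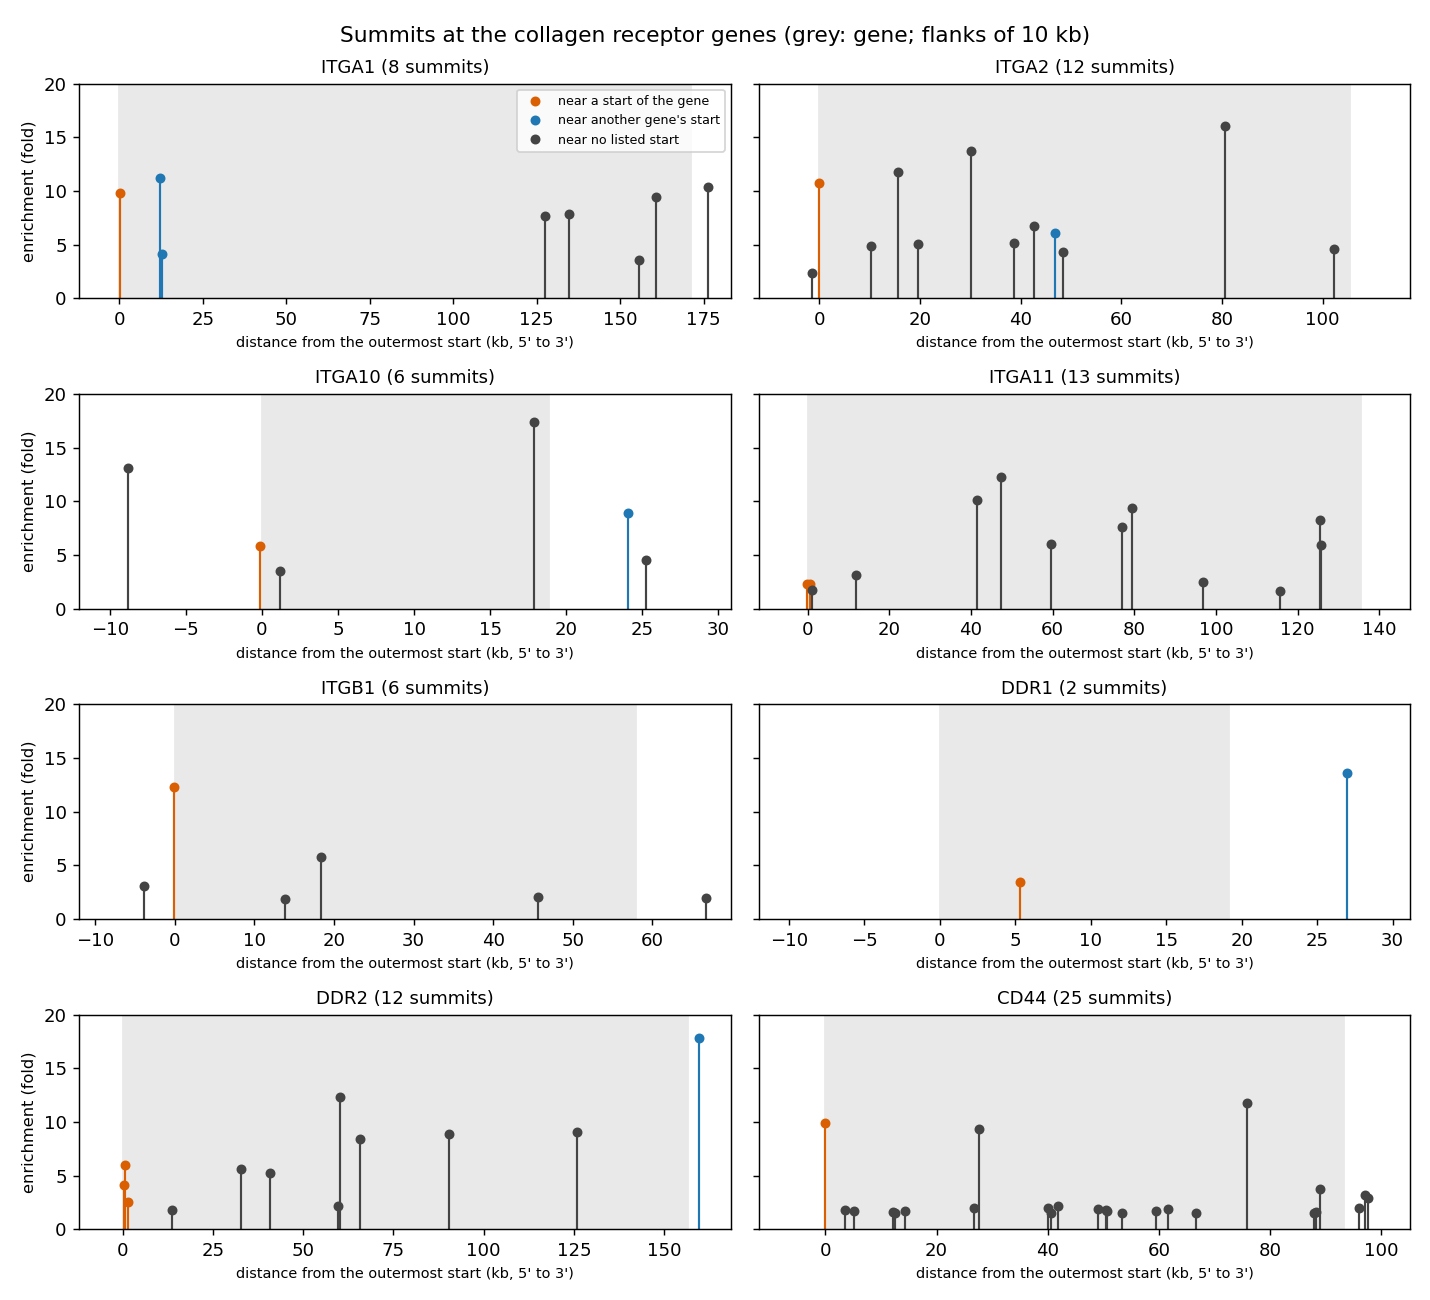
Enrichment (fold, vertical axis) of every summit at the 8 genes against its distance in kb from the outermost start, read 5′ to 3′. The grey band is the gene, orange points lie within 1000 bp of one of its starts, blue points within 1000 bp of another gene's start and dark points near no listed start; CD44 holds 25 summits and DDR1 holds 2.

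Each of the 8 genes had a summit within 1000 bp of a listed start, against 67.7% of 15843 protein-coding genes with a listed start. DDR1 met this only through the seventh of its 8 listed starts, 982 bp away, so 7 of the 8 genes had a summit by their outermost start, against 63.7% of protein-coding genes. By either end of the gene, the measure open to all protein-coding genes, 7 of the 8 genes had a summit, against 65.7%. The strength of the start summits was mostly below the middle of the genome. Among protein-coding genes with a start summit the median of the highest start enrichment was 12.3, with quartiles of 7.89 and 15.0. Of the 7 genes other than DDR1, all but ITGB1 were below that median. ITGB1 stood at it, with 12.32 beside a median of 12.29 and 95% limits of 11.8 to 12.9. DDR1 is left out of this comparison because its site was also listed on alternate sequences of chromosome 6.

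In order, the highest start enrichment was 12.3 at ITGB1 (95% limits 11.8 to 12.9), 10.75 at ITGA2 (10.0 to 11.5), 9.96 at CD44 (9.41 to 10.5) and 9.86 at ITGA1 (9.03 to 10.7). It was 5.96 at DDR2 (5.27 to 6.72) and 5.83 at ITGA10 (4.97 to 6.80). The lowest value was 2.33 at ITGA11 (1.73 to 3.06). DDR1, at 3.42 (2.69 to 4.30) on the primary chromosome, was given no place in this order, since its site was also listed on alternate sequences of chromosome 6. The limits of ITGA2, CD44 and ITGA1 overlapped from one gene to the next, as did those of DDR2 and ITGA10. The limits of ITGB1 and ITGA2 did not overlap, nor did those of ITGA1 and DDR2 or of ITGA10 and ITGA11. In pileup the spread was wider: 2138 fragments at ITGB1, 1241 at CD44, 846 at ITGA2, 528 at ITGA1, 264 at DDR2, 161 at ITGA10 and 49 at ITGA11. The ITGB1 pileup was above that of 87.9% of coding genes with a start summit and the ITGA11 pileup above that of 3.75%. CD44 had a higher pileup but a lower enrichment than ITGA2, because its background was 123.7 fragments and that of ITGA2 was 77.8.

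**Figure D2:**
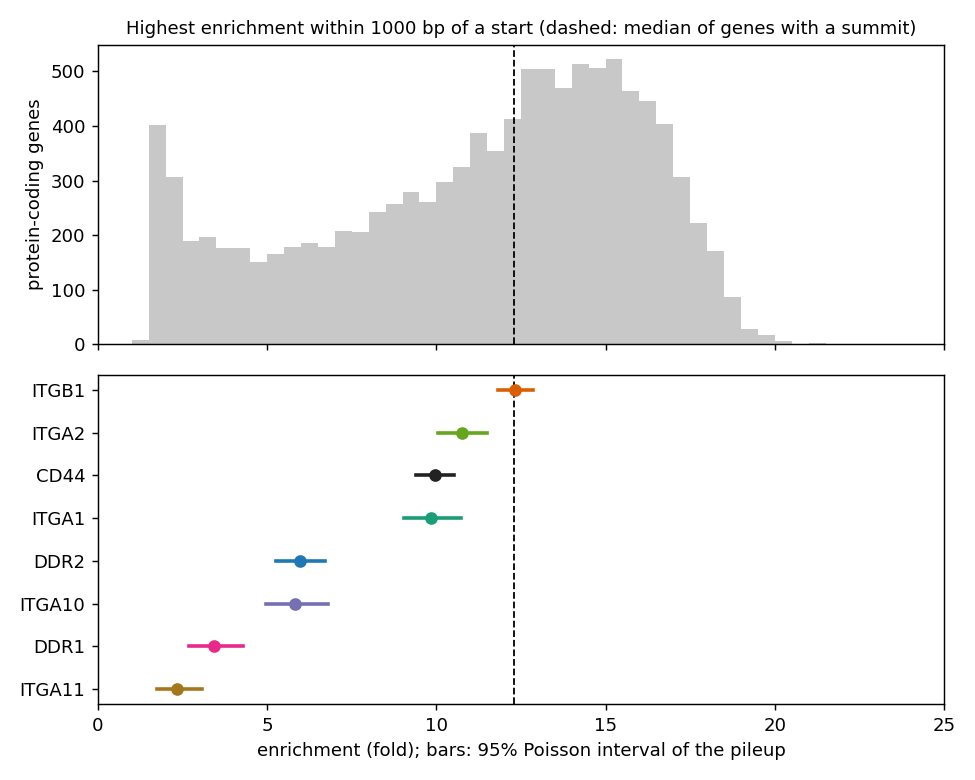
Top, the number of protein-coding genes by highest enrichment (fold) within 1000 bp of a start, with the median of 12.3 dashed. Bottom, the 8 genes on the same axis, with points for the enrichment and bars for the 95% Poisson limits. ITGB1 sits at the median and the other genes lie to its left. DDR1 is drawn at its value on the primary chromosome, which cannot be compared with those of the other genes.

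ITGB1 encodes the beta chain shared by all 4 collagen-binding alpha chains. The gene lies on chromosome 10 from 32900318 to 32958230 on the minus strand and has 2 listed starts. Its strongest summit, at 32958341, was 111 bp before the outermost start, in an interval of 1277 bp, with a pileup of 2138 over a background of 172.6 fragments. No summit lay within 1000 bp of the inner start at 32935558. A summit farther upstream, at 32962078, had a pileup of 514 but an enrichment of only 3.04, over a similarly high background of 168.5. Inside the gene the highest enrichment was 5.75, at 32939896, with a pileup of 162. The other 3 summits had enrichments of 1.88 to 2.02 and pileups of 42 to 56. The gene for the shared beta chain thus had 1 dominant site, at its start.

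ITGA1 and ITGA2 encode the alpha chains of the first collagen-binding integrins to be described, and lie side by side on chromosome 5. ITGA1 spans 52787916 to 52959209 on the plus strand. Its start summit at 52788006, with a pileup of 528 and an enrichment of 9.86, was also 90 bp from the start listed for PELO, a ribosome rescue gene nested in ITGA1, so the 2 genes cannot be told apart there. The strongest ITGA1 summit, at 52800070, reached an enrichment of 11.2 with 481 fragments, and lay 71 bp from a start of PELO-AS1, a noncoding gene antisense to PELO. The same interval held a weaker summit at 52800750, with 175 fragments and 4.08-fold enrichment. After that, the next summit in the gene was more than 100 kb farther on, at 52915475. From there to the end, 5 summits had enrichments of 3.55 to 10.4, the last of them beyond the gene at 52964363. The summits from 52943550 onward also lay within ITGA2-AS1, a noncoding gene antisense to ITGA2. The ITGA1 sites thus fell into a group at the start and a group at the far end.

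ITGA2 spans 52989352 to 53094779, also on the plus strand. Its start summit, at 52989314, was 38 bp before the start and had a pileup of 846 and an enrichment of 10.75. That summit also lay inside ITGA2-AS1, 972 bp from a start listed for that gene. Inside the gene 3 summits exceeded that enrichment: 16.1 at 53069850 with a pileup of 739, 13.75 at 53019501 with 696, and 11.8 at 53005088 with 935. The summit at 53069850 is 80498 bp after the start, and its enrichment was above the highest value of 85.1% of protein-coding genes with a summit. Between 52999745 and 53037718 lay 8 summits in 8 separate intervals, with enrichments of 4.30 to 13.75. Their local backgrounds ranged from 23.1 to 83.4 fragments. Those at 53028084 and 53031932 also lay inside another gene, LOC124900974, and that at 53036288 was 520 bp from its start. Of the 12 ITGA2 summits, 8 had an enrichment of at least 5, and none was below 2. Among the 4 alpha chains, ITGA2 had the highest median pileup over its summits, 430 fragments, against 272 for ITGA10, 197.5 for ITGA1 and 177 for ITGA11. Its median background, 69.2 fragments, was also the highest of the 4. By median enrichment ITGA2 was the lowest, at 5.61, against 8.62 for ITGA1, 7.39 for ITGA10 and 5.95 for ITGA11.

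ITGA10 and ITGA11 encode the alpha chains known mainly from cartilage and from fibroblasts. ITGA10 is short, from 145891208 to 145910050 on chromosome 1, minus strand, and held only 2 of its 6 summits inside the gene. The start summit, 127 bp upstream at 145910177, was modest, with a pileup of 161 and an enrichment of 5.83. By contrast, a summit near the far end of the gene, at 145892167, had a pileup of 2460, the highest of all 84, over a background of 140.8. Its enrichment of 17.4 was above the highest value of 94.5% of protein-coding genes with a summit, and no other gene's end or listed start was within 1000 bp of it. It lay 17883 bp after the start. Downstream, the summit at 145886014 (enrichment 8.95) was 148 bp from an end of ANKRD35.

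ITGA11 spans 68296532 to 68432163 on chromosome 15, minus strand. At its start a single interval of 1380 bp held 3 summits with pileups of 37, 49 and 49 and enrichments of 1.74 to 2.33, and none of these had a −log10 q of 10. Deeper in the gene, 3 summits were about as low, with enrichments of 1.64, 2.46 and 3.18 and pileups of 43, 63 and 73, and the other 7 were higher. The strongest site, at 68384696 and 47467 bp after the start, reached an enrichment of 12.2 with 536 fragments. A pair of neighbouring summits at 68352616 and 68355113 had pileups of 971 and 763, over backgrounds of 102.9 and 99.7. Enrichment was 10.1 at 68390624 and 8.29 at 68306750. ITGA11 had 7 summits with an enrichment of at least 5, all inside the gene and none within 1000 bp of its start, and no other gene's start or end was near any of its summits.

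DDR2 spans 162630863 to 162787405 on chromosome 1, plus strand, with 3 listed starts inside its first 2 kb. One interval of 1698 bp there held 3 summits, with pileups of 184, 264 and 109 and enrichments of 4.13, 5.96 and 2.51. The middle summit, at 162631614, lay between the first start and the next, 751 bp after the outermost. Within the gene the strongest summit was at 162691098, 60235 bp after the outermost start, with 568 fragments and 12.3-fold enrichment. Another 3 summits, at 162696499, 162721202 and 162756726, had enrichments of 8.43 to 9.09. The highest enrichment in the window, 17.8 with a pileup of 1230, was at 162790612, beyond the end of DDR2. It lay 90 bp from the start of HSD17B7, which encodes an enzyme of cholesterol and steroid synthesis. When summits at other genes' starts were left out, the highest value for DDR2 was 12.3 in place of 17.8.

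DDR1 spans 30880970 to 30900156 on chromosome 6, plus strand, in the major histocompatibility region, and has 8 listed starts. On the primary chromosome it had 2 summits. Only 1 lay inside the gene, at 30886266, 5296 bp after the outermost start, with a pileup of 72 and an enrichment of 3.42. No summit lay within 1000 bp of the outermost 6 starts, although the window at the fifth has a CpG ratio of 0.791. The second summit, at 30907943, had a pileup of 290, 13.65-fold enriched, and was 264 bp from the start of GTF2H4, which encodes a subunit of the transcription and repair factor TFIIH. Both DDR1 summits stood on the genome-wide background of 20.3 fragments, within a tolerance of 0.2%. Of the other 7 genes, ITGA1, ITGB1 and DDR2 had 3, 1 and 2 summits at that background, and the rest had 0, although the ITGA11 start summit, at 20.48, was close to it. Over all summits in the list 53.0% stood at that background, against 9.52% of the 84 summits at the 8 genes. The whole list also holds sites far from genes. Within 1 Mb of each gene, outside its window, the share ran from 6.62% around ITGA10 to 58.7% around DDR1. CD44 alone gave 25 of the 84 summits, with 0 at that background.

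The assembly holds further copies of the DDR1 region as alternate sequences of chromosome 6, and 13 such sequences carried summits in the list. RefSeq coordinates on them were not used here. They were instead lined up by spacing: for each, the shift was found at which most summits matched, within a bin of 200 bp, the 36 primary summits within 500 kb of DDR1, with those at DDR1 itself left out. A shift with 8 to 24 matching summits was found for 7 sequences. At any shift more than 100 kb away, at most 5 summits matched on those 7, and the remaining 6 sequences had at most 5 matches and were not placed. On 4 of the 7 placed sequences, GL000251v2, GL000253v2, GL000254v2 and GL000255v2, a summit fell inside DDR1, 5303 to 5365 bp after the outermost start, beside the primary summit at 5296 bp. Their pileups were 68, 64, 69 and 76 fragments, and that on the primary chromosome was 72. The site was thus listed on 5 sequences, each time over the genome-wide background and with an enrichment of 3.05 to 3.61. The site beyond DDR1, near GTF2H4, was listed on 5 alternates with pileups of 127 to 799 beside 290 on the primary chromosome. On GL000250v2 and GL000256v2, also placed, no summit fell in DDR1 or its window. No placed sequence carried a summit at the outermost DDR1 starts. Whether reads from 1 site were shared out among the copies was not tested, so the primary values for DDR1 cannot be compared with those of genes that have a single copy in the assembly.

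**Figure D3:**
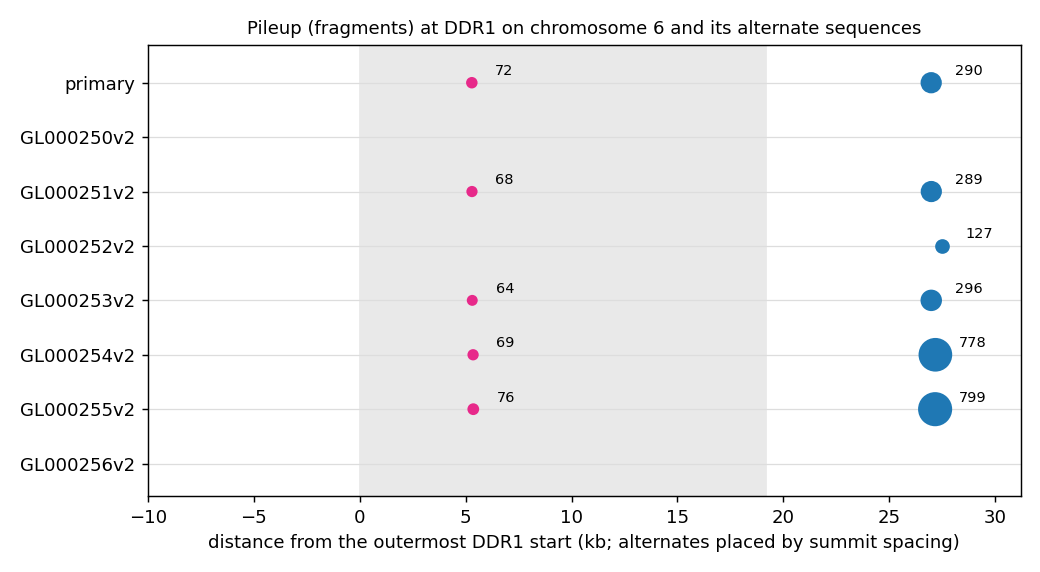
Summits at DDR1 on the primary chromosome 6 and on the 7 alternate sequences that could be placed, against distance in kb from the outermost DDR1 start (grey band, the gene). Point area and the number beside each point give the pileup in fragments; pink points, inside DDR1, hold 64 to 76 fragments on each of 5 sequences, and blue points lie beyond the gene, near GTF2H4.

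CD44 spans 35139171 to 35232402 on chromosome 11, plus strand, and had 3 strong summits among many weak ones. The start summit, at 35139117 and just upstream of the start, had a pileup of 1241 and an enrichment of 9.96. A summit at 35166859 had a pileup of 1170 and an enrichment of 9.38. The strongest, 75800 bp after the start at 35214971, had a pileup of 1564 and an enrichment of 11.8, and lay 39 bp from an end of CD44-AS1, a noncoding antisense gene. The other 22 summits had enrichments from 1.499 to 3.765. Enrichment was below 2 at 18 of the 25 CD44 summits, at 5 of the 59 summits of the other 7 genes and at 12.02% of all summits in the list.

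The 18 CD44 summits with an enrichment below 2 had pileups of 70 to 272 fragments, with a median of 85.5. Of these, 11 were below 101 fragments, the median pileup of all summits in the list. They also stood on a high local background. The lowest background at any CD44 summit was 41.0 fragments, 2.02 times the genome-wide value and above the lowest background of 92.7% of the 6815 protein-coding genes with at least 5 summits. Over the genome-wide background the same pileups would correspond to enrichments of 3.33 to 12.8. Among 117 summits within 1 Mb on either side, outside the CD44 window, the median background was 26.9 fragments, the lowest was 20.3, and 27.4% stood at the genome-wide value. The raised background was thus seen across CD44 and was not shared by all sites around it. What raised it was not tested.

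**Figure D4:**
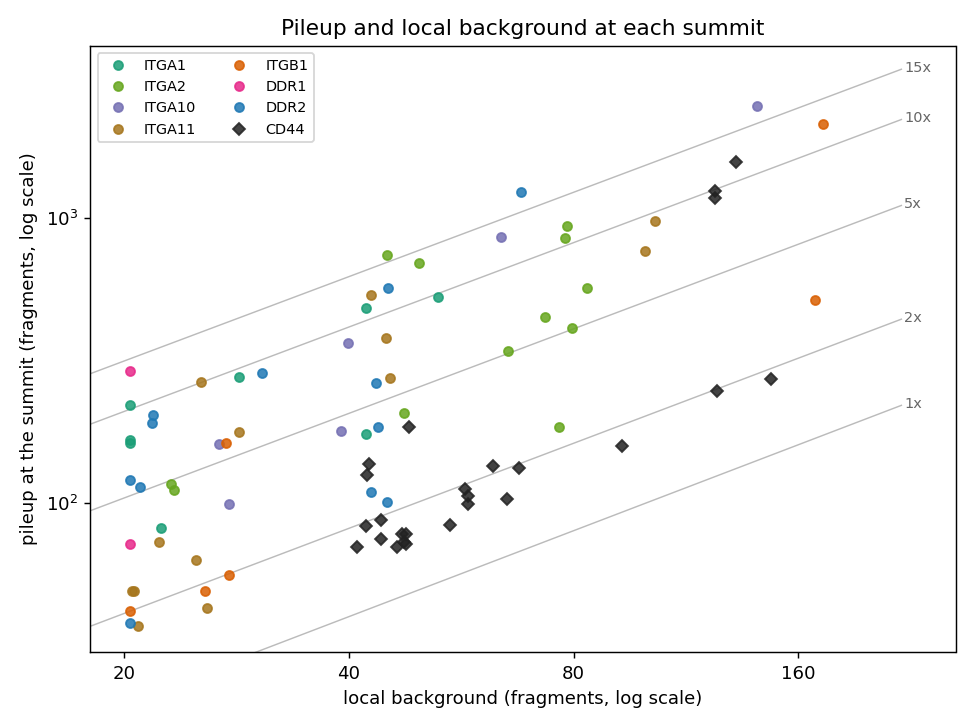
Pileup at the summit against local background for the 84 summits, both in fragments on log scales, with grey lines of equal enrichment (1 to 15 fold). CD44 (black diamonds) has no summit with a background below 41.0, and 18 of its 25 summits lie under the 2-fold line.

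The other genes of the pathway were described by their ends, since starts were listed for only some of them. The lists had been drawn up with earlier results of these data known. Of 13 other integrin genes of adherent cells, 10 had one lying no more than 1000 bp from an end, with a median enrichment of 5.81, led by ITGAV (14.7), ITGA6 (11.95) and ITGA4 (10.5), and ITGA8, ITGB4 and ITGB6 had none there. For the 8 collagen receptor genes the median of the 7 values was 9.96, and for all protein-coding genes with such a summit it was 11.7. These 7 values leave out DDR1, and that of ITGA10 (17.4) was at its far end, with 5.83 at its start. By listed start the order depended on DDR1. With DDR1 at its primary value, the median over the 8 collagen receptor genes was 7.91. Without DDR1 the middle of the 7 values was that of ITGA1, 9.86. The median was 9.055 over 6 of the 8 other integrin genes of adherent cells with a listed start. Of 8 integrin genes of blood cells, ITGB2 (16.9) and ITGAX (6.03) had a summit by an end, and ITGAL, ITGAM, ITGAD, ITGAE, ITGA2B and ITGB7 had none there. Of 5 further collagen receptors, MRC2, which takes up collagen for breakdown, had an end summit (9.14). GP6, the platelet collagen receptor, and LAIR1, an inhibitory receptor of leukocytes, had no summit in the gene or within 10 kb, and OSCAR and ADGRG1 had summits only away from their ends, in ADGRG1 at a listed start inside the gene (10.05).

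Inside the cell, integrin tails are tied to actin by adaptor proteins. Of 20 such genes, 16 had an end summit, with a median of 11.8, led by CRKL (18.2), LIMS1 (17.3) and ZYX (15.4), with VCL, the gene of vinculin, at 14.5 and TLN1, that of talin, at 12.6. FERMT3, PARVA, PARVB and SRC had none there, although FERMT3 (2.79) and PARVB (2.135) had a summit at a listed start inside the gene. Of 8 genes linked to CD44 or to hyaluronan, 6 had one (median 8.04), the highest at NF2 (18.5), HMMR (12.65) and MSN (8.30), while EZR and HAS3 had none, although EZR had a summit at a listed start inside the gene (9.30). All 5 signalling partners of the discoidin domain receptors had one (median 13.3), the highest at PTK2B (16.7), PTPN11 (13.3) and PIK3R1 (13.3). These shares, from 20% to 100%, stand beside 65.7% for all protein-coding genes. LIMS2, HAS1 and NCK2 had an end summit but none at a listed start.

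Markers of cell type were read in the same way. Of 16 mesenchymal genes, 12 had an end summit, led by FN1 (15.1), COL6A2 (10.3) and COL6A1 (10.05), and COL1A1, COL1A2, THY1 and ZEB2 had none there. The median of the 12 was 8.84, and only FN1 was above the 11.7 of all protein-coding genes with an end summit. The share of all protein-coding genes with an end summit, 65.7%, stands beside each of the marker counts. An end summit was present at 3 of 8 epithelial genes (KRT8 at 12.7, EPCAM at 2.11 and KRT18 at 1.75), 2 of 4 leukocyte genes (CD3E at 14.5 and SPI1 at 8.44) and 1 of 4 endothelial genes (TIE1 at 3.04). KRT8 had no summit within 1000 bp of a listed start, so its end summit was not at one. The highest value in the gene and window of KRT18 was also 12.7. CDH1, KRT19, GRHL2, CLDN4, PTPRC, CD14, PECAM1, CDH5 and VWF had none at an end but at least 1 within 10 kb, and ESRP1 had none at all. A summit at a gene end does not show that the gene is transcribed.

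**Figure D5:**
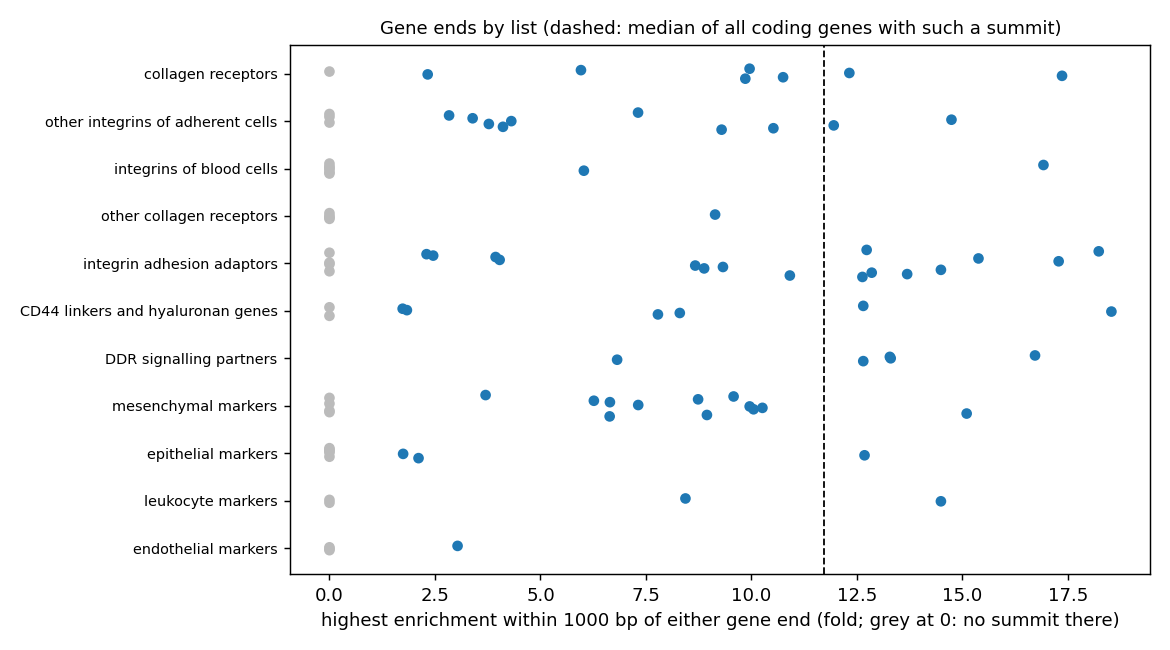
Highest enrichment (fold) within 1000 bp of either end of each gene, by list, with the median of 11.7 over all protein-coding genes with such a summit dashed. Grey points at 0 are genes with no summit there, 1 of 8 among the collagen receptors and 6 of 8 among the integrins of blood cells.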

How the data were processed

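HT1080 ATAC-seq libraries were grouped by collagen concentration from their titles, but the 1 deposited peak list names no library. Per the submitters' processing notes, fastp 0.20.0, Bowtie2 2.4.3, deepTools 3.5.0, SAMtools and MACS2 2.2.7.1 were used with hg38; call parameters, read filters and treatment of duplicates are not given in the sources used here. The enrichment was deposited as a ratio (fold), p and q on the −log10 scale, and the deposited score equals 10 times −log10 q, truncated, in 99.76% of lines.

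Pileup and background were solved from (pileup + 1)/(background + 1) = enrichment and an upper Poisson tail = p, a model no label states; it gave whole pileups, within 0.05, in 99.96% of lines. The solution was tested on simulated data. Summits were joined to RefSeq genes (GRCh38.p14), and starts and strands came from the RefSeq promoter table, which lists 15843 of 20037 protein-coding genes. Coordinates are 1-based. The gene table gives no exons, so exons and introns are not named.

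No test between groups was possible, so none was run. Members and lists were chosen with earlier results of these data known. All members are named; in each list the 3 highest genes and those without a summit are named. A marker gene and a neighbouring gene are not reported here. Python 3.11.15, numpy 2.4.6, pandas 2.3.3 and scipy 1.17.1 were used.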

Additional observations from a re-analysis of the deposited data

How the results depend on the processing

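The number of summits at the 8 genes was 67 in the gene bodies alone, 117 with a window of 50 kb, 70 with each interval counted once and 60 at a −log10 q of at least 10, beside 84, all within 1.5 times of it. All 8 genes had a summit under each of these windows and at a −log10 q of at least 10 or 50. CD44 lost most of its summits at the cut of 50, which left 3 of 25, while ITGA2 kept 9 of 12. A start summit was present at 7 genes within 500 bp and at 8 within 2500 bp, at 7 with a −log10 q of at least 10 (without ITGA11) and at 6 with at least 50 (without ITGA11 and DDR1). The median over the 8 genes of the highest enrichment, 12.99, became 12.01 in gene bodies, 13.67 with 50 kb and 12.05 when pileup or −log10 q chose the leading summit. Without summits at other genes' starts, a choice made after the data were seen, it was 12.28, and DDR1 fell from 13.65 to 3.42. In gene bodies alone ITGB1 fell from 12.3 to 5.75, since its start summit lies upstream. The median density, 8.03 summits per 100 kb, became 7.94 in gene bodies and 7.09 with 50 kb. With 50 kb, DDR1 went from 5.10 to 1.68 and CD44 from 22.1 to 15.0 summits per 100 kb. No paired analysis was possible because the peak list carries no value per library, and for the same reason no replicate could be left out. The rule that placed the alternate sequences was chosen after the data were seen. The enrichment of 1 summit has no replicate error, and a recovered pileup pools the libraries in unknown proportions.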
